A study of Mus musculus with 10 samples.

Results

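The genes of the G2 phase and of mitosis were followed in mouse embryonic fibroblasts (MEF) 3 hours after a mild heat treatment. Their members came from a list of 37 genes that encode mitotic kinases, cyclins, kinetochore and spindle proteins, motor proteins and cytokinesis factors. Of these, 36 had at least 1 probe set with a single gene symbol in the platform annotation, and all 36 were among the 10916 genes tested of 18193 measured. The remaining member, Ccnb1, was not analysed here. Each gene was represented by the probe set with its highest mean over the 10 arrays. The mean level of 35 members lay between the 74.7th and the 98.9th percentile of all genes, and that of Kif24 at the 51.7th.

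The arrays came from a line labelled hsp70 (-/-), or knockout, and a line labelled hsp70 (+/+), or rescue, called KO-labelled and rescue-labelled below. Preshocked cells had spent 30 minutes at 43 °C in a water bath, 20 hours after plating, and were harvested 3 hours later, while unheated cells were harvested 23 hours after plating. There were 3 preshocked and 3 unheated KO-labelled arrays, and 2 preshocked and 2 unheated rescue-labelled arrays, each from the pooled lysates of 144 wells. The labels name only 1 line of each genotype, so genotype and line cannot be told apart. KO-labelled arrays are numbered 5 to 14 and rescue-labelled arrays 31 to 44, so line and array number cannot be told apart either. Nothing in them says that arrays of a group came from separate cultures, and the p-values measure only the spread between these samples, which may be technical.

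Cells that commit to mitosis switch on a set of genes late in the cell cycle. Cyclin A2 and cyclin B2 activate the kinase Cdk1, the Aurora and Polo-like kinases build the spindle, the kinetochore proteins hold chromosomes to microtubules, and the anaphase-promoting complex ends mitosis by marking cyclins for destruction. Most of these transcripts are low in resting cells, so their level in a culture is widely read as a sign of cycling. In such pooled lysates, fewer cells in mitosis and less RNA per cell cannot be told apart. Many promoters of the group carry a short element called the CHR, which is bound by the DREAM and MMB complexes, and CCAAT boxes, which are bound by NF-Y.

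Those 2 elements are shown here for 6 of the 8 members given with their value in every array by the rule for named genes, because sequence did not enter the choice of the list. Called or not, these 6 have a promoter in the table that holds at least 1 of the elements. Of the other 2, the promoter of Melk holds neither, and Tpx2 is not in the table. Each sequence is the RefSeq promoter on GRCm38.p6 from 250 to 1 base before the annotated start, on the gene's own strand. They are Kif24 (chr4:41464849-41465098, minus strand), Aurka (chr2:172370571-172370820, minus strand), Nek2 (chr1:191821223-191821472, plus strand), Prc1 (chr7:80294201-80294450, plus strand), Cdca8 (chr4:124936918-124937167, minus strand) and Cdk1 (chr10:69352913-69353162, minus strand). Capitals mark a CHR (TTTGAA or TTCGAA) or a CCAAT box on either strand, so that ATTGG is a CCAAT box on the opposite strand.
Kif24: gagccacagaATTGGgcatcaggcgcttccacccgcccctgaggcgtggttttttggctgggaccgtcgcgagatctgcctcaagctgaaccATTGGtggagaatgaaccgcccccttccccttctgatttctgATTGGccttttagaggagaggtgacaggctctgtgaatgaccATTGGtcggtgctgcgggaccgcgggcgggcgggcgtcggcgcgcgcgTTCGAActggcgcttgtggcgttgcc
Aurka: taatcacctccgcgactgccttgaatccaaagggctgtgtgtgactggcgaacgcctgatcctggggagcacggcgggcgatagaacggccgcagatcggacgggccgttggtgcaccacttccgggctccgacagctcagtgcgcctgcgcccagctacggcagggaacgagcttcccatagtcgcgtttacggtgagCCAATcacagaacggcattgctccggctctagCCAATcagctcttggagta
Nek2: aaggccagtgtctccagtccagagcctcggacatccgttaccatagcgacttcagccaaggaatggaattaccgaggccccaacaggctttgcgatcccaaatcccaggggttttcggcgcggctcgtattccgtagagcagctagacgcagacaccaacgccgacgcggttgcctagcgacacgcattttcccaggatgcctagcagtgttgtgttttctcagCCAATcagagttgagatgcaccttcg
Prc1: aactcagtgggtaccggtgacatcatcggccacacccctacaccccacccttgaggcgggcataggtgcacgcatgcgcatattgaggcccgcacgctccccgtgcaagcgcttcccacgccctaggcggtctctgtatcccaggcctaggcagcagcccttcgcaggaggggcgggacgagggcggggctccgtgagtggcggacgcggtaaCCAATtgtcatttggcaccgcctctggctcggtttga
Cdca8: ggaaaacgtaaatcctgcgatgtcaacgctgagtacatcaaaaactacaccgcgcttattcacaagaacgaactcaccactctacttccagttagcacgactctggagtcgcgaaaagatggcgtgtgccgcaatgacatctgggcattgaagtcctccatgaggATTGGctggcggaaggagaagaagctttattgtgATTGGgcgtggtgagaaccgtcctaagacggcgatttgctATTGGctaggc
Cdk1: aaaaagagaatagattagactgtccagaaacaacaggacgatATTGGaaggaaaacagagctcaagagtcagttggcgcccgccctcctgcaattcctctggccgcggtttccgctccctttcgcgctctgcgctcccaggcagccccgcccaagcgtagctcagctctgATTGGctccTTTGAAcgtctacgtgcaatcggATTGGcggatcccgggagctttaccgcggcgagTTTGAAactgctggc

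Promoters were given for 32 of the 36 members, 34 promoters in all, each searched from 250 bases before to 50 bases after the start on both strands. The CHR spelled TTTGAA stood in 25 of 34 (73.5%) against 17.9% of all 32851 promoters of the same length, and TTCGAA in 4 (11.8%) against 1.56%. A CCAAT box stood in 26 (76.5%) against 37.4%, and a CHR together with a CCAAT box in 24 (70.6%) against 7.52%. A CHR and a CCAAT box can share an end base, and such sites were not counted apart. In Kif24 the CHR was of the rarer spelling and began 26 bases before the start, with 4 CCAAT boxes upstream of it. Cdk1, the kinase that drives entry into mitosis, held TTTGAA at 71 and 15 bases before the start. In Aurka and Cdca8 the CHR began 33 and 14 bases after the start and so lies outside the stretch printed, and in Prc1 it began 5 bases before the start and crosses it. No CHR was found in the window of Nek2. A heat shock element, searched as 3 alternating GAA and TTC units with 2 bases between them, was found in 0 of the 34 member promoters and in 0.603% of all. A match is a run of letters and was not tested for binding here.

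The heat treatment itself was visible in every preshocked array. Hspa1b, which encodes an inducible Hsp70 chaperone, had deposited intensities of 63.24 to 675 over its 3 probe sets in the unheated arrays and of 15500 to 43330 in the preshocked ones, the KO-labelled arrays included. Whether these probe sets lie in the part deleted from the knockout is not stated in the labels, so they do not check that label, and directions between the lines below are those of the labels. Dnajb1, an Hsp40 cochaperone, stood at 1982 to 4158 in unheated and at 13600 to 30900 in preshocked arrays, with no overlap. Of 11 fibroblast markers 10 passed the filter on dim genes, with Vim and Col1a2 at the 100th and 98.8th percentile and Thy1 and Postn at the 46.9th and 33.8th. The filter was also passed by 3 of 6 epithelial, 3 of 6 macrophage and leukocyte and 1 of 4 endothelial markers. So it was by 2 of 4 muscle and 4 of 4 neural markers. Summed deposited intensities of fibroblast markers lay between 80300 and 133100 in the 4 groups, against 162.7 to 1232 for 6 epithelial, 710.1 to 1606 for 6 macrophage and leukocyte and 56.45 to 312.9 for 4 endothelial markers. The sums of 4 neural and 4 muscle markers differed between the lines without overlap, at 1681 to 2060 and 563.1 to 866.7 in KO-labelled against 785.3 to 1008 and 214.5 to 344.9 in rescue-labelled arrays. Much of each sum came from 1 gene, Nes at 657.9 to 1632 and Acta1 at 155.3 to 663.7 over the 10 arrays. Of the 6 of these markers tested 1 was called between the lines by limma, where 0.421% of all genes were unheated and 0.339% preshocked. It was the muscle actin Acta1, lower in rescue-labelled arrays by a difference of -1.41 unheated and -1.60 preshocked (adjusted p = 0.0346 and 0.0335). The part of these markers in the comparisons of the lines below was not tested. The median deposited intensity was 100.2 and 106.8 in KO-labelled arrays 5 and 6 and 50.5 to 73.5 in the other 8. Results were computed again without arrays 5 and 6.

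As a group, the mitotic genes showed no common direction 3 hours after preshock. The median change of the 36 members, averaged over the 2 lines with equal weight, was 0.043 on the log2 scale, and that of all genes tested was -0.039, with 20 members above 0 and 16 below. On the deposited scale these medians were 0.10 and -0.070, and with arrays centred on their medians 0.15 and -0.021. By limma with Benjamini-Hochberg adjustment over all genes, 2 members rose (Aurka and Prc1), where 1.84% of all genes did, and 1 fell (Kif24), where 2.57% did. That is 8.33% of the members called, against 4.42% of all genes. The 95% interval of the average change lay within a 2-fold change in either direction for 34 of 36 members, all but Kif24 and Ect2. In KO-labelled arrays alone the median change was 0.011 and no member was called by limma, against 1.77% of all genes, with 4 members (11.1%) at an unadjusted p under 0.05, where 12.8% of all genes were. The KO-labelled groups did not overlap for 5 members that were higher and 1 that was lower after preshock, where 5.63% and 10.7% of all genes did not overlap. In rescue-labelled arrays the median was 0.056 and 1 member fell, Kif24, where 0.0824% of all genes did and 0.357% were called in either direction. Here 10 members were higher and 5 lower without overlap, with 16.4% and 22.3% among all genes.

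**Figure D1:**
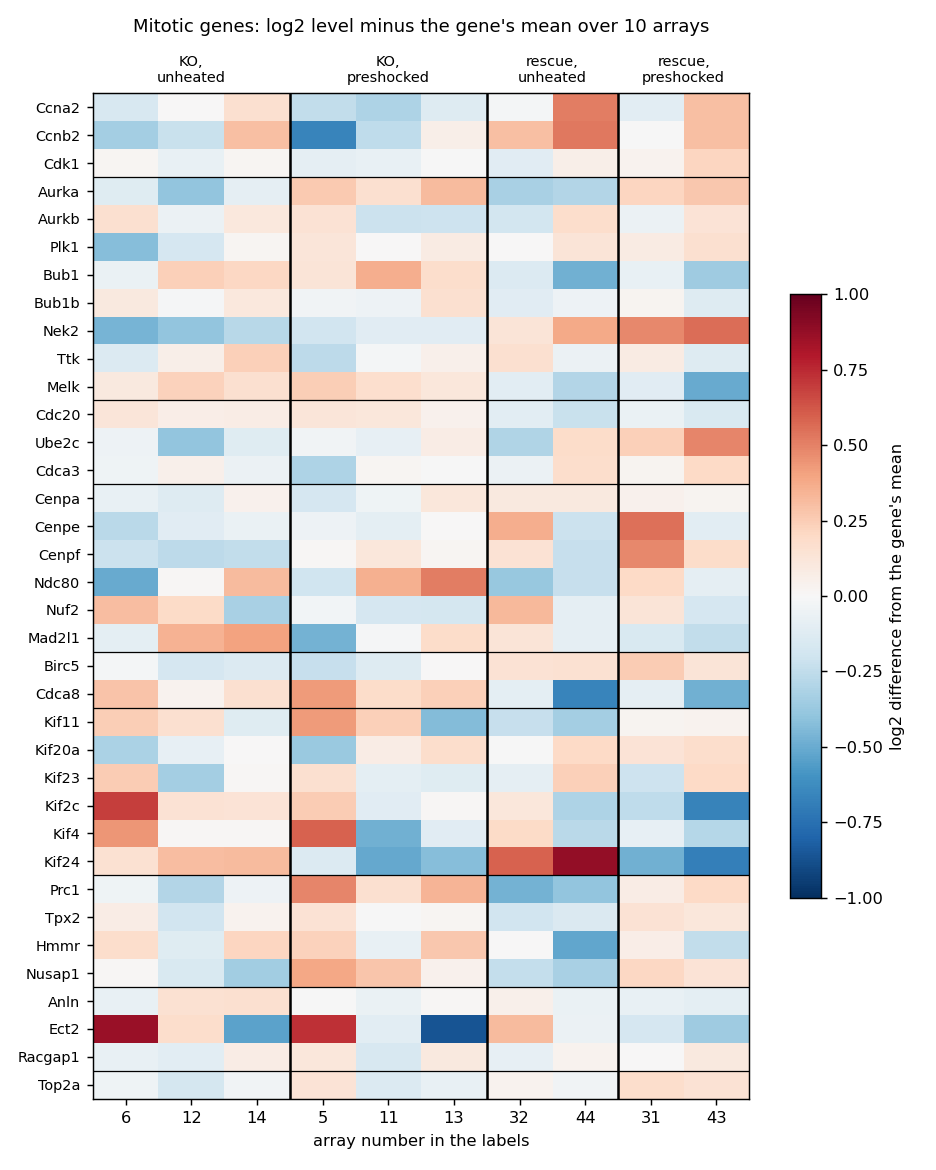
Quantile-normalized log2 level of each of the 36 members (rows, ordered by role) in each of the 10 arrays (columns, numbered as in the labels), as the difference from the gene's own mean. Colours from blue to red span -1 to 1 on the log2 scale; Kif24 is red in unheated and blue in preshocked columns, Aurka and Prc1 the other way round, and most other rows show no block of one colour by treatment.

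Arrays with adjoining numbers in the labels (5 and 6, 11 and 12, 13 and 14, 31 and 32, 43 and 44) hold 1 preshocked and 1 unheated sample of a line, and they deviated together from their group means over all genes, with correlations of 0.37 to 0.721. Both rescue-labelled pairs give the same correlation by construction, since 2 arrays mirror each other around their mean. Taken pair by pair, the members went in different directions. In all 5 pairs 11 members were higher after preshock, where 12.6% of all genes were, and 7 were lower, where 22% of all genes were. The 11 were Aurka, Plk1, Cenpe, Cenpf, Prc1, Ube2c, Nek2, Ndc80, Hmmr, Cdca8 and Nusap1, and the 7 were Ccna2, Ccnb2, Kif2c, Kif24, Mad2l1, Ttk and Ect2. Of the members with a promoter in the table, a CHR was present in 8 of 11 that were higher in all pairs, in 5 of 6 that were lower and in 12 of 15 of the rest.

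**Figure D2:**
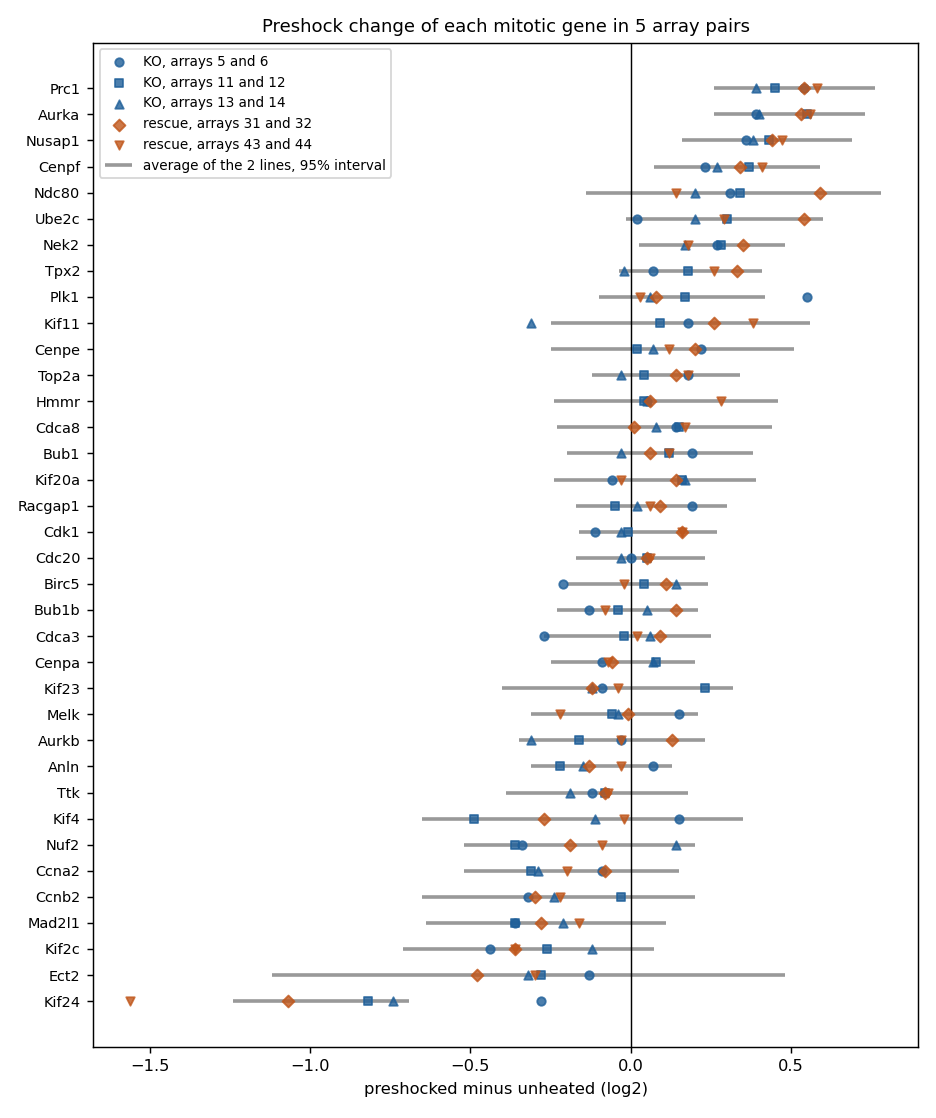
Preshocked minus unheated log2 level of each member in each of 5 array pairs (symbols; blue for KO-labelled, orange for rescue-labelled), with the 95% interval of the average of the 2 lines as a grey bar, ordered by that average. Prc1, Aurka and Nusap1 lie between 0.36 and 0.58 in every pair at the top, and Kif24 between -0.28 and -1.56 at the bottom.

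Among the mitotic kinases, Aurka, the Aurora kinase that matures the spindle poles, rose. Levels here and below are quantile-normalized log2 intensities in the array order 6, 12, 14 (unheated) and 5, 11, 13 (preshocked), and for the rescue-labelled line 32, 44 and 31, 43. In KO-labelled arrays Aurka stood at 11.94, 11.67 and 11.97 unheated and 12.32, 12.22 and 12.38 preshocked. In rescue-labelled arrays it stood at 11.74 and 11.77 unheated and 12.28 and 12.33 preshocked. Every preshocked array was above every unheated one. The average rise was 0.50 ± 0.10 (SE), or 1.41-fold, with a limma adjusted p of 0.0316. The gene lies on chromosome 2 from 172356190 to 172370886 (GRCm38.p6). Leaving out 1 array at a time kept the call only without array 6, with adjusted p from 0.0494 to 0.123, while the rise stayed between 0.45 and 0.52. Without arrays 5 and 6 together it was 0.52 (adjusted p = 0.0536). With the array pair as a block the adjusted p was 0.0105, and the KO-labelled value of 0.45 was called too (adjusted p = 0.0319, against 0.155 without the block). In KO-labelled arrays the block called 3 members higher, Aurka, Prc1 and Nusap1, and 0 lower. Of all 10916 genes it called 364 higher (3.33%) and 635 lower. A second, dim Aurka probe set, with a mean of 3.38 where the dimmest gene tested had 5.65, gave -0.33 ± 0.62, and the mean of both probe sets gave 0.081 and no call.

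The other 7 kinases were not called by limma on average. Nek2, which acts in the separation of centrosomes, changed by 0.17 to 0.35 in the 5 pairs, an average of 0.25 ± 0.10, and was called only with the pair block (adjusted p = 0.045, against 0.226 without). Plk1, the Polo-like kinase of mitotic entry, was above 0 in every pair, at 0.03 to 0.17 in 4 of them and at 0.55 in arrays 5 and 6, so that its average of 0.16 leaned on that pair. Ttk, a checkpoint kinase, was lower in every pair by small amounts, from -0.07 to -0.19. Bub1, Bub1b, Aurkb and Melk averaged between -0.059 and 0.092 with pairs on both sides of 0.

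The spindle and microtubule proteins were the role with the highest median, 0.31, and all 4 averages were above 0. Prc1, which bundles the microtubules of the central spindle, rose. It was at 11.52, 11.27 and 11.51 in unheated and 12.05, 11.72 and 11.90 in preshocked KO-labelled arrays. In the rescue-labelled arrays it was at 11.09 and 11.17 unheated and at 11.64 and 11.76 preshocked. Groups did not overlap within either line, and the average rise was 0.51 ± 0.11, or 1.43-fold (limma adjusted p = 0.0389). Without each array in turn the rise was 0.47 to 0.55 and the call was lost every time, with adjusted p from 0.0548 to 0.143, and it was lost without arrays 5 and 6 together (0.0566). With the pair block the adjusted p was 0.00973 for the average and 0.0296 for KO-labelled arrays. A second Prc1 probe set of similar brightness gave 0.54 ± 0.19. Prc1 lies on chromosome 7 from 80294445 to 80316259.

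Nusap1, a protein that bundles spindle microtubules around chromosomes, changed by a similar amount in each pair, at 0.36, 0.43, 0.38, 0.44 and 0.47. Its levels were 11.63, 11.46 and 11.27 unheated and 12, 11.89 and 11.66 preshocked in KO-labelled arrays, and 11.38 and 11.29 against 11.82 and 11.75 in rescue-labelled arrays. The 2 treatments did not overlap within a line, although array 6 lay close to array 13. The average of 0.42 ± 0.12 was not called without the block (adjusted p = 0.0892) and was called with it (adjusted p = 0.0109). It is given in every array because of that second result, and so was chosen after its values were seen, as were Cenpf, Mad2l1, Kif2c and Ect2 below. Tpx2, which activates Aurora A at the spindle, averaged 0.19 ± 0.10 and Hmmr, a spindle-associated protein, 0.11 ± 0.15. Tpx2 has 4 probe sets, of which 1 other gave 0.50 ± 0.20, and the rest are not given here. Of the 2 probe sets of Nusap1 only the brighter is given.

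**Figure D3:**
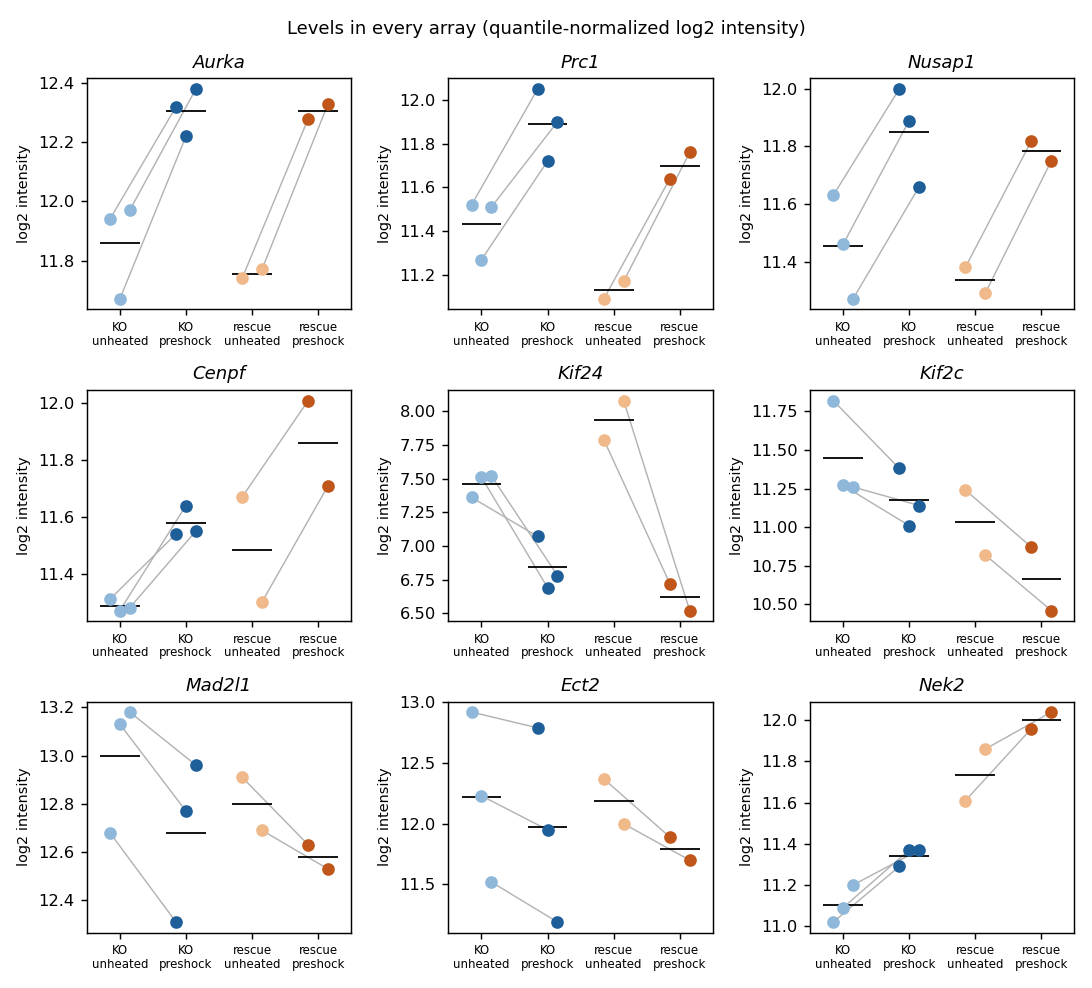
Log2 level of 9 members in every array (points; pale for unheated, dark for preshocked, blue for KO-labelled, orange for rescue-labelled), with group means as black bars and grey lines joining arrays of adjoining numbers. Each panel has its own axis, which does not start at 0; within each panel all 5 lines slope the same way, while for Ect2 the 3 KO-labelled pairs are spread over more than the slope.

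Kinesins are motor proteins that move along or take apart microtubules, and the change of greatest size among all 36 members was in one of them. Kif24, a kinesin that acts at the centriole, fell. Its levels were 7.36, 7.51 and 7.52 in unheated and 7.07, 6.69 and 6.78 in preshocked KO-labelled arrays, and 7.79 and 8.08 against 6.72 and 6.52 in rescue-labelled arrays. Every unheated array was above every preshocked one. It fell by 0.96 ± 0.12 on average, a 1.95-fold change (limma adjusted p = 0.00514), by 1.31 ± 0.19 in rescue-labelled arrays (adjusted p = 0.0312), and the value in KO-labelled arrays was -0.62 ± 0.15 (adjusted p = 0.105). The average stayed called without each array in turn, with adjusted p from 0.00493 to 0.0322, and without arrays 5 and 6 together (0.00603). The rescue-labelled call was kept only without array 5 or array 6, with adjusted p from 0.0286 to 0.244, and was lost with the pair block (adjusted p = 0.0533). In deposited intensity Kif24 was dim, at 165.8 to 285.6 unheated and 78.1 to 179.1 preshocked, ranges that overlap through array 5. Its 2 other probe sets, with mean levels of 5.34 and 5.99, gave -0.46 ± 0.33 and 0.035 ± 0.27, and the mean of its 3 probe sets gave -0.46 and no call. Kif24 lies on chromosome 4 from 41389964 to 41464919.

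Kif2c, a kinesin that takes apart microtubules at centromeres, was lower in all 5 pairs by -0.12 to -0.44. It stood at 11.82, 11.27 and 11.26 against 11.38, 11.01 and 11.14 in KO-labelled arrays and at 11.24 and 10.82 against 10.87 and 10.46 in rescue-labelled ones. The treatments overlapped in both lines, and its average of -0.32 ± 0.17 was called only with the pair block (adjusted p = 0.0393, against 0.422). Of the 4 probe sets of Kif2c only the brightest is given. Kif4, Kif11, Kif20a and Kif23 had averages of -0.15 to 0.15 and pairs on both sides of 0.

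At the kinetochore, members went both ways. Cenpf, a large kinetochore protein, was at 11.31, 11.27 and 11.28 against 11.54, 11.64 and 11.55 in KO-labelled arrays, with no overlap. In rescue-labelled arrays it was at 11.67 and 11.30 against 12.01 and 11.71, again without overlap. Its average of 0.33 ± 0.11 was called with the pair block (adjusted p = 0.02) and not without it (0.166), and its 2 other probe sets gave 0.39 and 0.54. Mad2l1, the Mad2 protein of the spindle checkpoint, was lower by -0.16 to -0.36 in the pairs, from 12.68, 13.13 and 13.18 to 12.31, 12.77 and 12.96 and from 12.91 and 12.69 to 12.63 and 12.53. These levels overlapped in KO-labelled arrays, and the average of -0.27 ± 0.16 was called only with the pair block (adjusted p = 0.0399, against 0.516). Ndc80 and Nuf2 are partners in 1 complex that grips microtubules. Ndc80 was higher in every pair, by 0.14 to 0.59, and Nuf2 lower in 4 of 5, between -0.36 and 0.14, and neither was called. Cenpe averaged 0.13 ± 0.17 and Cenpa, the histone variant of centromeres, -0.024 ± 0.10.

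None of the 3 cyclin and Cdk1 transcripts was called. Cdk1 was at 13.02, 12.93 and 13.02 unheated and 12.91, 12.93 and 13 preshocked in KO-labelled arrays, and at 12.89 and 13.06 against 13.04 and 13.22 in rescue-labelled ones. It was slightly lower in the 3 KO-labelled pairs, by -0.01 to -0.11, and higher by 0.16 in both rescue-labelled pairs, and the difference between the lines was 0.20 ± 0.19 (limma adjusted p = 1). Ccna2 and Ccnb2 were lower in all 5 pairs, by -0.08 to -0.31 and by -0.03 to -0.32, with averages of -0.19 ± 0.15 and -0.23 ± 0.19 that were not called with or without the block.

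No partner of the anaphase-promoting complex was called. Cdc20, its activator, had an average of 0.031 ± 0.088, with an interval from -0.17 to 0.23, and Cdca3 of -0.011 ± 0.11. Ube2c, the ubiquitin-conjugating enzyme of the complex, was higher in all pairs, by 0.02 to 0.54, an average of 0.29 ± 0.14 that was not called. Of the chromosomal passenger partners, Birc5 (survivin) averaged 0.018 ± 0.10 and Cdca8 (borealin) 0.10 ± 0.15. Top2a, the topoisomerase that untangles chromosomes, averaged 0.11 ± 0.10.

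Among the cytokinesis genes, Ect2, which activates RhoA for furrowing, was lower in all 5 pairs by -0.13 to -0.48. The pairs themselves lay far apart, with KO-labelled levels of 12.92, 12.23 and 11.52 unheated and 12.79, 11.95 and 11.19 preshocked, and rescue-labelled levels of 12.37 and 12 against 11.89 and 11.70. Its average of -0.32 had an SE of 0.35 and an adjusted p of 0.802 without the block, and an SE of 0.061 and an adjusted p of 0.0325 with it. Anln and Racgap1 averaged -0.092 ± 0.10 and 0.064 ± 0.10. With the pair block, 5 members were called higher and 4 lower in the average of the lines, where 5.87% and 11.5% of all genes were. In rescue-labelled arrays it called 0 members, where 1.5% of all genes were called.

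The response was next compared between the lines. No member differed in its response after adjustment by limma, as no gene of the 10916 did (0% called). At an unadjusted limma p under 0.05 there was 1 member (2.78%), Kif24, where 0.944% of all genes were. Its fall was larger in rescue-labelled arrays by 0.70 ± 0.24 (unadjusted p = 0.0199, adjusted p = 1). With the pair block 0 members and 0% of all genes were called. After Kif24 the smallest p-values were those of Tpx2 and Cdk1. Tpx2 was at 11.91, 11.64 and 11.87 against 11.98, 11.83 and 11.85 in KO-labelled arrays, which overlapped, and at 11.64 and 11.69 against 11.98 and 11.95 in rescue-labelled arrays, which did not, a difference of 0.22 ± 0.20. The 95% interval of this difference reached beyond a 2-fold change for 5 members (Ect2, Kif11, Kif24, Kif4 and Ndc80) and lay within it for 31.

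Levels of the mitotic genes were also compared between the lines at each treatment. The median difference, rescue-labelled minus KO-labelled, was -0.028 unheated and 0.026 preshocked, with -0.024 and -0.013 for all genes, and no member was called by limma where 0.421% and 0.339% of all genes were. Centring arrays on their medians instead gave 0.57 and 0.53 for the members and 0.50 and 0.42 for all genes. At an unadjusted p under 0.05 there were 4 and 5 members (11.1% and 13.9%), shares no larger than the 12.9% and 14.1% of all genes, and with the pair as a random block no member was called, where 0.202% and 0.147% of all genes were. The unheated groups did not overlap for 6 members that were higher and 8 that were lower in rescue-labelled arrays, where 14.9% and 16.3% of all genes did not overlap. In the preshocked groups these were 8 and 6 members, against 16.6% and 16.4% of all genes.

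Nek2 had the smallest p in both. It was at 11.02, 11.09 and 11.20 in unheated KO-labelled and 11.61 and 11.86 in unheated rescue-labelled arrays, and at 11.29, 11.37 and 11.37 against 11.96 and 12.04 after preshock. The rescue-labelled arrays were the higher at both treatments, by 0.63 ± 0.14 and 0.65 ± 0.14 (limma adjusted p = 0.121 and 0.107). Its probe sets did not move together, since in the unheated comparison the next brightest gave -0.47 ± 0.43, and the mean of its 4 probe sets gave -0.29 in the preshocked one.

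Cdca8 was lower in rescue-labelled arrays, at 12.34 and 11.78 against 12.72, 12.47 and 12.60 unheated and at 12.35 and 11.96 against 12.86, 12.62 and 12.68 preshocked, without overlap. The differences were -0.53 ± 0.21 and -0.56 ± 0.21 (adjusted p = 0.335 and 0.294), and 2 other Cdca8 probe sets gave 0.053 and -0.003 unheated. With median centring the unheated difference of Cdca8 turned to 0.076. Melk, a kinase of proliferating cells, was at 10.92 and 10.73 against 11.12, 11.25 and 11.18 unheated and at 10.91 and 10.52 against 11.27, 11.19 and 11.14 preshocked. It was the lower in rescue-labelled arrays at both treatments, by a difference of -0.48 ± 0.16 after preshock (adjusted p = 0.254), which median centring turned to 0.014. Kif24 was higher in unheated rescue-labelled arrays by 0.47 ± 0.17 (adjusted p = 0.318), with its levels given above.

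**Figure D4:**
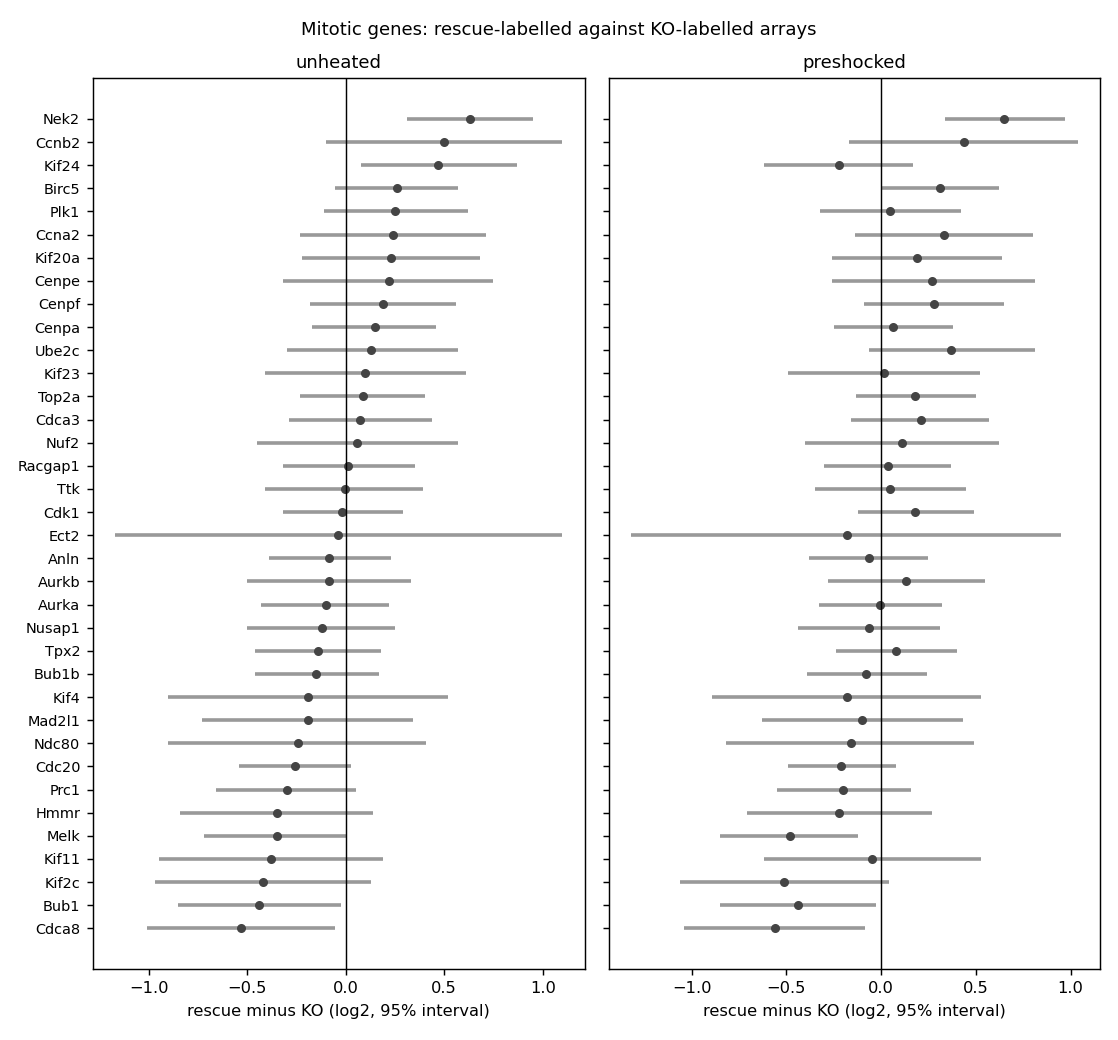
Rescue-labelled minus KO-labelled log2 level of each member with its 95% interval, in unheated (left) and preshocked (right) arrays. Nek2 lies at 0.63 and 0.65 at the top and Cdca8 at -0.53 and -0.56 at the bottom, and no member passed the adjusted threshold.

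Other genes of the cell cycle were read from the same tests. Of 49 regulators of G2 and mitosis (transcription factors of the CHR and CCAAT elements, Cdk1 kinases and phosphatases, subunits of the anaphase-promoting complex), 1 fell on average, Cdc23, a subunit of that complex (-0.48 ± 0.094, limma adjusted p = 0.0269), and 0 rose, with a median of -0.060. The block called 1 higher (Ccnf) and 4 lower (Cdc23, Bora, Nfya and Rbl1), named after their values were seen. Of 81 further mitotic genes tested, 2 fell and 0 rose, with a median of -0.034. They were Haspin, a kinase of histone H3 (-0.53 ± 0.12, adjusted p = 0.041), and Pimreg (-0.54 ± 0.12, adjusted p = 0.0446). With the pair block 2 were called higher and 7 lower. Without it, 2.04% of the regulators and 2.47% of the further mitotic genes were called, where 2.57% of all genes fell and 1.84% rose. The block called 5.87% of all genes higher and 11.5% lower.

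Genes of G1 and S phase had a lower median, -0.089, and 47 of 65 were below 0, where 6225 of all 10916 genes were. Without the block 2 rose, Orc1 of the origin recognition complex (0.62 ± 0.12, adjusted p = 0.03) and Brca1 (0.46 ± 0.10, adjusted p = 0.0337), and 0 fell. That is 3.08% of the list called, where 1.84% of all genes rose and 2.57% fell. With the pair block 3 were called higher and 15 lower, where 5.87% and 11.5% of all genes were. At an unadjusted limma p under 0.05 without the block, 3 were higher and 11 lower (21.5% of the list). Among all 10916 genes 648 were higher and 1241 lower at that threshold (17.3%). How many genes were called thus depended on the block.

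Checkpoint and arrest genes had a median of 0.213, and 5 of 25 rose (20%), where 1.84% of all genes did. The list, like the others, was chosen with earlier results of these data known, so this share is not an independent test. Ccng2, an atypical cyclin of arrested cells, rose by 2.00 ± 0.16 (adjusted p = 0.00057), and Cdkn1a, the Cdk inhibitor p21, by 1.57 ± 0.16 (0.00182). Both rose in each line, by 2.00 and 1.48 in KO-labelled arrays and 1.99 and 1.66 in rescue-labelled arrays. The rescue-labelled call of Cdkn1a was lost with the pair block and that of Ccng2 was not. Gadd45g (2.27 ± 0.28) and Mdm2 (0.93 ± 0.16) rose on average and in KO-labelled arrays, and the remaining gene called on average was Gadd45b (limma adjusted p = 0.0302), named after its values were seen. With the pair block 7 of the 25 were called higher on average, where 5.87% of all genes were. It called 1 lower, Cdkn2d, also named after its values were seen, where 11.5% of all genes were. The difference of responses was called for none of the genes in these 4 lists. Of the regulators 1 (2.04%), Ccnf, had an unadjusted p under 0.05 (0.60 ± 0.24, adjusted p = 1), where 0.944% of all genes did.

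**Figure D5:**
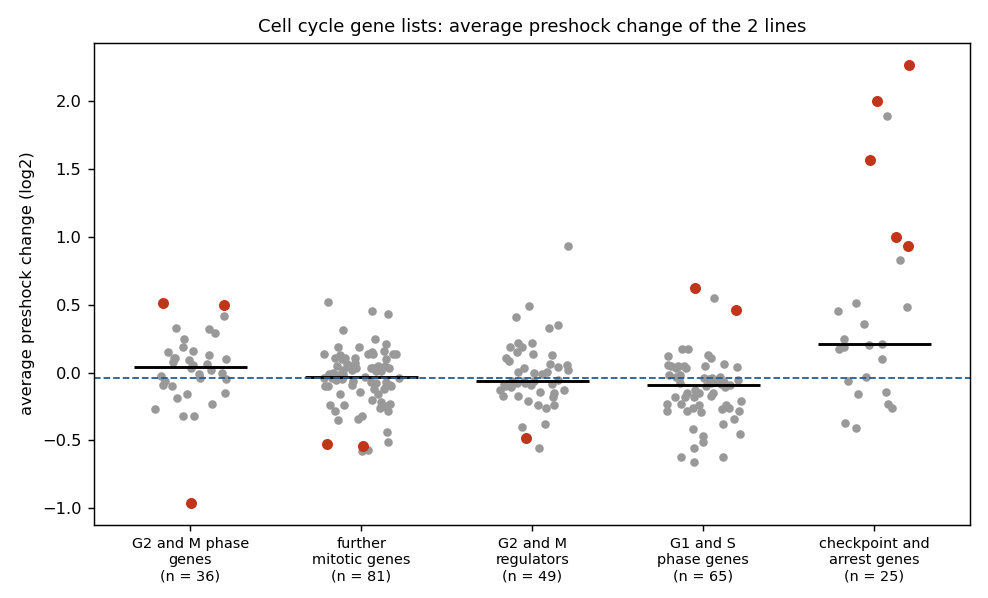
Average preshock change (log2) of every tested gene in 5 lists of cell cycle genes, with called genes in red, list medians as black bars and the median of all genes as a dashed line. The G2 and M phase genes spread from -0.96 to 0.51 around a median of 0.043, and 5 checkpoint and arrest genes lie at 0.93 to 2.27.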

How the data were processed

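Total RNA of 10 samples was measured on 1 Affymetrix mouse array each. The authors deposited 1 intensity per probe set and array on a linear scale, with software not given in the sources used here. With 2% trimmed from each end, the mean was 500.003 or 500.004 in every array, so the deposited values were already scaled. Of 45101 probe sets, 34945 had 1 gene symbol in the platform annotation, 932 had several and 9160 none. Array medians differed by up to 1.08 (log2), so values below 1 (4935) were set to 1 and log2 values were quantile normalized. The 60% of genes with the highest mean were tested in 1 limma model (version 3.58.1, R 4.3.3, statmod 1.5.0) with a mean per group, and genes were called at a Benjamini-Hochberg adjusted p under 0.05 over all genes. Errors are standard errors. All fits below the gene level (other probe sets) used the same model over all probe sets.

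The pair block used adjoining array numbers; each array correlated best with its adjoining number (0.721, 0.376, 0.552 and, as 1 value for both rescue-labelled pairs, 0.37), and the labels do not state the pairing. Members and lists were chosen with earlier results of these data known. Named members are those called in any comparison and the 3 smallest p-values per comparison; up to 4 called genes are named per other list, and others where the text says so. Promoters were printed for up to 6 named members that held a searched element. Alternatives were the deposited scale, median centring, no filter, the top 40% of genes, log2(value + 16), the mean of all probe sets, the pair block, robust trended moderation, each array left out and arrays 5 and 6 left out. Fewer arrays per group limit the precision, most in the rescue-labelled groups.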

Additional observations from a re-analysis of the deposited data

How the results depend on the processing

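No value named for a called member changed direction under an alternative in the comparison where it was called. The call of Kif24 in rescue-labelled arrays (1 member) became 0 on the deposited scale, with median centring, without the filter, with the top 40% of genes (Kif24 is then not tested), with the mean of all probe sets, with the replicate block and with robust moderation, and was 0 to 1 without 1 array. In the average response the 2 members called higher became 0 with centring, without the filter, with the mean of all probe sets and without arrays 5 and 6, 5 with the replicate block, and 0 to 1 without 1 array. The 1 called lower became 0 with the top 40% of genes and the mean of all probe sets, and 4 with the block. In KO-labelled arrays 0 called higher became 3 with the block. The block changed no other call of a member.

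Members' medians moved by more than 0.0481, their SD between arrays, as follows. In KO-labelled arrays the median was 0.075 on the deposited scale, 0.16 centred and 0.090 over all probe sets. It was 0.11 and 0.13 in rescue-labelled arrays, and 0.10 and 0.15 on average, on the deposited scale and centred. The difference of responses was -0.019 centred and 0.000 to 0.11 without 1 array. Between the lines it was 0.032 deposited and 0.57 centred when unheated (-0.10 to -0.008 without 1 array), and 0.53 centred, -0.064 over all probe sets and 0.082 without arrays 5 and 6 when preshocked (-0.041 to 0.081). Centring moved all genes by similar amounts, to medians of 0.50 and 0.42.

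Directions that turned belonged to uncalled values. With the mean of all probe sets Aurka was -0.72 in rescue-labelled arrays, differences of responses were -1.59 for Aurka, -0.048 for Prc1 and -0.10 for Tpx2, and Nek2 was -0.29 between the preshocked lines. With centring Cdca8 was 0.076 unheated and Melk 0.014 preshocked between the lines. The cause was not tested.

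Over all genes the average response had 482 calls (41.7% higher), 622 deposited (30.9%), 127 centred (62.2%), 167 without the filter, 255 over all probe sets, 1901 with the block (33.7%) and 185 (without array 32) to 493 without 1 array.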
